A study of Homo sapiens and Mus musculus with 10 samples.

Results

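LCN2 and FDCSP, a pair of genes for small secreted proteins of host defence, were described in A375 cells, an established human melanoma line. The pair was chosen from its measured values in this very comparison of LL-37 with control cells, so the values of both genes are a description and carry no test. They are 2 of the 63140 genes in the human expression table, of which 14399 were expressed highly enough to be tested. The study holds 10 RNA-seq libraries. The A375 groups were cells exposed for 24 h to LL-37 at 80 µg/mL (n = 3) and untreated cells kept for the same time (Ctrl, n = 3), which the series text calls biological triplicates. The CAMP gene encodes cathelicidin, from which the antimicrobial peptide LL-37 is released. All 6 libraries come from 1 cell line, and no genotype separates the groups. The other 4 libraries are from mouse skin and were not analysed here.

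Lipocalin 2 (LCN2, also called NGAL) is a secreted carrier protein that binds the siderophores with which bacteria capture iron, and so keeps iron from them. It is stored in neutrophil granules, and epithelial cells make it during inflammation, when NF-kB, the NF-kB partner IκBζ (NFKBIZ) and C/EBP factors act on its gene. FDCSP, follicular dendritic cell secreted protein, is a short peptide first found in the follicular dendritic cells of lymphoid tissue and also made by tonsil crypt and tooth-attachment epithelium. Its gene lies in a cluster that also encodes caseins, salivary peptides and enamel proteins.

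LCN2 (ENSG00000148346) lies on the forward strand of human chromosome 9, positions 128149071 to 128153455 of GRCh38 in GENCODE 29. Its main transcript has 7 exons and 594 coding bases. FDCSP (ENSG00000181617) lies on the forward strand of chromosome 4, positions 70226071 to 70235252, with 1 transcript of 566 bases, 5 exons and 255 coding bases. Both genes are short, the longest LCN2 transcript having 877 bases. Neither overlaps another annotated gene on either strand.

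The stretch before the start of the main LCN2 transcript is shown for the letters of the NF-kB and C/EBP motifs. It runs up to the RefSeq transcription start (assembly GRCh38.p14, forward strand, chr9:128149265-128149452). That start lies 382 bases after the first base of the gene in GENCODE 29, where another LCN2 transcript begins, so that the stretch is inside the gene interval given above. Capitals mark the letters that match an NF-kB or a C/EBP motif.
LCN2: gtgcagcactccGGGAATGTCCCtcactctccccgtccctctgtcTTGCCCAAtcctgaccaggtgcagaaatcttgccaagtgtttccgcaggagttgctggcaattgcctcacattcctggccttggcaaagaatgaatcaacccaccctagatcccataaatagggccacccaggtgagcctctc
Motifs were searched on both strands in the 250 bases before the start. The NF-kB letters (GGG, any 5 bases, CC) matched at 2 overlapping places, GGGAATGTCC on the forward strand (bases 176 to 167 before the start) and the reverse-strand match GGAATGTCCC (bases 175 to 166). These loose letters occur in 54.4% of 35116 RefSeq promoter windows of the same length, and the exact run GGGAATGTCC in 24 of them (0.0683%). That run was read from the LCN2 window itself. A run with every base fixed is rare whatever its letters, so that its share supports nothing. The C/EBP letters TTGCNNAA matched once, as TTGCCCAA (bases 143 to 136), and occur in 9.05% of windows. The exact run TTGCCCAA occurs in 270 windows (0.769%). The STAT letters TTCNNNGAA had 0 matches (6.57% of windows hold them), and the TATA box letters TATAAA had 0 matches (10.7%). A match is a description of the letters and does not show binding.

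Expression was given as TPM, which is scaled by transcript length and by library, so that levels of different genes can be compared but sequencing depth is unknown and no counting error can be given. One library stood apart. LL-37 replicate 3 correlated with the other 5 at r = 0.949 to 0.963 across genes, against 0.985 to 0.992 among the others. At least 1 TPM was reached by 12991 genes in it, compared with 14304 to 14555 in the other libraries. Its median gene deviated from the Ctrl mean by -0.59 on the log2(TPM + 1) scale, and the shortfall was deepest in long transcripts. LCN2, FDCSP and the lists are therefore given with and without it, and a printed log2 difference of a single gene is given without it where leaving it out turns the direction or moves the value by over 1.5 times. In all 6 libraries the median difference of all tested genes, LL-37 minus Ctrl, was -0.20 on that scale, and without LL-37 replicate 3 it was -0.00.

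LCN2 had 6.97, 7.35 and 5.75 TPM in the 3 LL-37 libraries, against 2.47, 3.21 and 3.84 TPM in the 3 Ctrl libraries. The LL-37 libraries all lay above the Ctrl libraries, with a gap of 1.91 TPM between the lowest LL-37 and the highest Ctrl library, which is a ratio of 1.5. The mean was 6.69 ± 0.836 TPM with LL-37 and 3.17 ± 0.686 TPM in Ctrl cells (SD, n = 3 each), a ratio of 2.11. Without LL-37 replicate 3, the lowest of the 3 LL-37 libraries, the LL-37 mean was 7.16 TPM (SD 0.269, n = 2) and the ratio 2.26.

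FDCSP had 11.37, 9.12 and 7.15 TPM in the LL-37 libraries, against 4.57, 3.97 and 5.83 TPM in the Ctrl libraries. Again the groups did not overlap, but the gap was narrower, 1.32 TPM or a ratio of 1.23 between LL-37 replicate 3 and Ctrl replicate 3. The mean was 9.21 ± 2.11 TPM with LL-37 and 4.79 ± 0.949 TPM in Ctrl cells (SD, n = 3 each), a ratio of 1.92. Without LL-37 replicate 3 the LL-37 mean was 10.24 TPM (SD 1.59, n = 2) and the ratio 2.14.

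**Figure D1:**
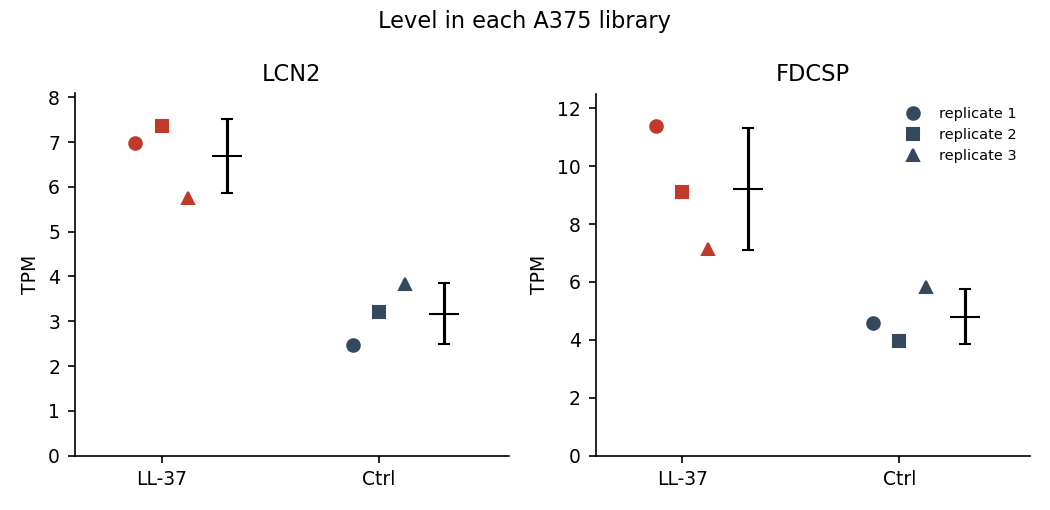
TPM of LCN2 and FDCSP in each A375 library, LL-37 left of Ctrl, with points for libraries and bars for the mean and SD (n = 3 each). All 3 LL-37 libraries lie above all 3 Ctrl libraries for both genes, and the LL-37 replicate 3 library is the lowest of its group for both (5.75 TPM for LCN2 and 7.15 TPM for FDCSP).

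On the log2(TPM + 1) scale, where changes of low genes appear smaller than they are, the difference between LL-37 and Ctrl was 0.89 for LCN2 (within-group SD 0.21) and 0.81 for FDCSP (within-group SD 0.27). Without LL-37 replicate 3 the differences were 0.98 and 0.96. Read against the median of all genes, they were 1.09 and 1.01 in all 6 libraries. That median does not stand for genes as short as the pair. In LL-37 replicate 3 it was -0.59 for all genes, but -0.01 and -0.13 for genes of the transcript length of LCN2 and FDCSP. With the length trend of each library removed, the differences were 0.91 and 0.83. LCN2 ranked 28 and FDCSP 42 of 14399 by size of the difference, and 42 and 48 without LL-37 replicate 3. Of all tested genes, 306 (2.13%) had every LL-37 library above every Ctrl library (entirely higher), and 1485 (10.3%) had every LL-37 library below (entirely lower). Both genes belong to the 306, among which LCN2 ranked 11 and FDCSP 17. These ranks place the pair and support nothing, since this contrast chose it.

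No gene passed the threshold of an adjusted p under 0.05 in the limma fit over all 6 libraries, which is 0 of 14399 or 0% (smallest adjusted p = 0.197). At an unadjusted p under 0.05 there were 363 genes. Without LL-37 replicate 3, 17 genes passed, 7 higher (0.0486%) and 10 lower (0.0694%) with LL-37, and 1298 had an unadjusted p under 0.05. No gene of the lists below passed in either fit.

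**Figure D2:**
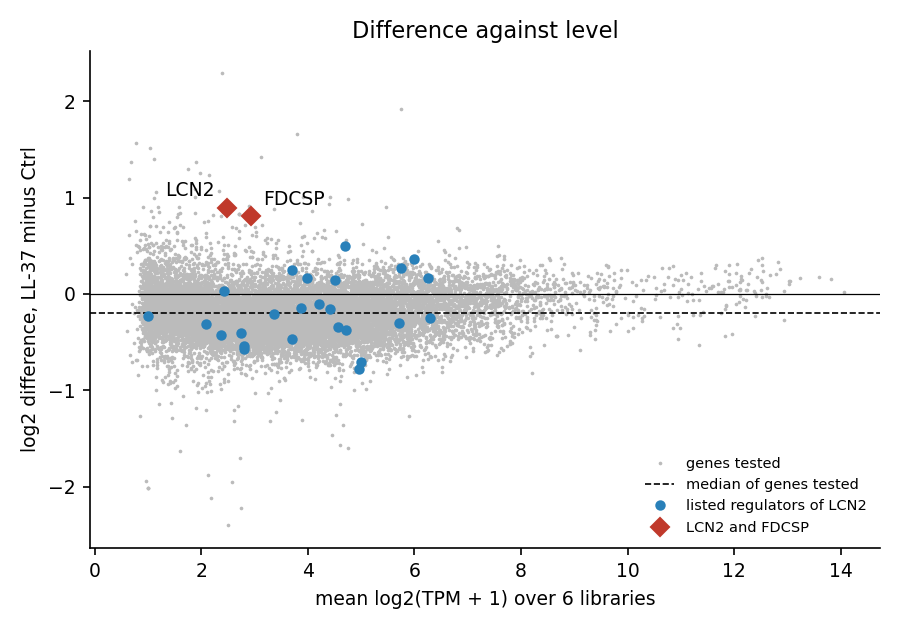
Difference of mean log2(TPM + 1), LL-37 minus Ctrl, against mean log2(TPM + 1) over the 6 libraries for the 14399 tested genes (grey), with the 25 tested regulators of LCN2 in blue and the median of all genes as a broken line. LCN2 (0.89) and FDCSP (0.81) stand at the upper edge of the low-expressed genes, while the median gene lies at -0.20.

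Both genes were expressed at a low level. LCN2 averaged 4.93 TPM over the 6 libraries, which is above 30.5% of the tested genes, and FDCSP averaged 7.0 TPM, above 37.8%. Both passed the filter of 1 TPM in all 6 libraries. FDCSP was the more abundant of the pair in every library. Its TPM was 1.63, 1.24 and 1.24 times that of LCN2 in the LL-37 libraries and 1.85, 1.24 and 1.52 times in the Ctrl libraries, so that the ranges of this ratio overlap.

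The LL-37 libraries differed from one another. Relative to the Ctrl mean, LCN2 stood at 2.20, 2.32 and 1.81 times in LL-37 replicates 1, 2 and 3. FDCSP stood at 2.37, 1.90 and 1.49 times. The coefficient of variation was 12.5% with LL-37 and 21.6% in Ctrl cells for LCN2, and 22.9% with LL-37 and 19.8% in Ctrl cells for FDCSP.

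The length of the transcripts bears on LL-37 replicate 3. In that library, genes whose longest transcript has over 4000 bases had a median deviation of -0.95 from the Ctrl mean on the log2(TPM + 1) scale (5543 genes). The median was -0.52 at 2000 to 4000 bases (5032 genes) and -0.13 at 1000 to 2000 bases (2100 genes). In the classes that hold the pair, the median was -0.01 at 700 to 1000 bases, the class of LCN2 (535 genes), and -0.13 up to 700 bases, the class of FDCSP (668 genes). LL-37 replicates 1 and 2 had medians between -0.05 and 0.05 in every class. LCN2 itself deviated by 0.95, 1.01 and 0.71 in LL-37 replicates 1, 2 and 3, and FDCSP by 1.11, 0.82 and 0.51. Each value lay above the median of its class in every LL-37 library. This position supports nothing, since the same contrast chose the pair.

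**Figure D3:**
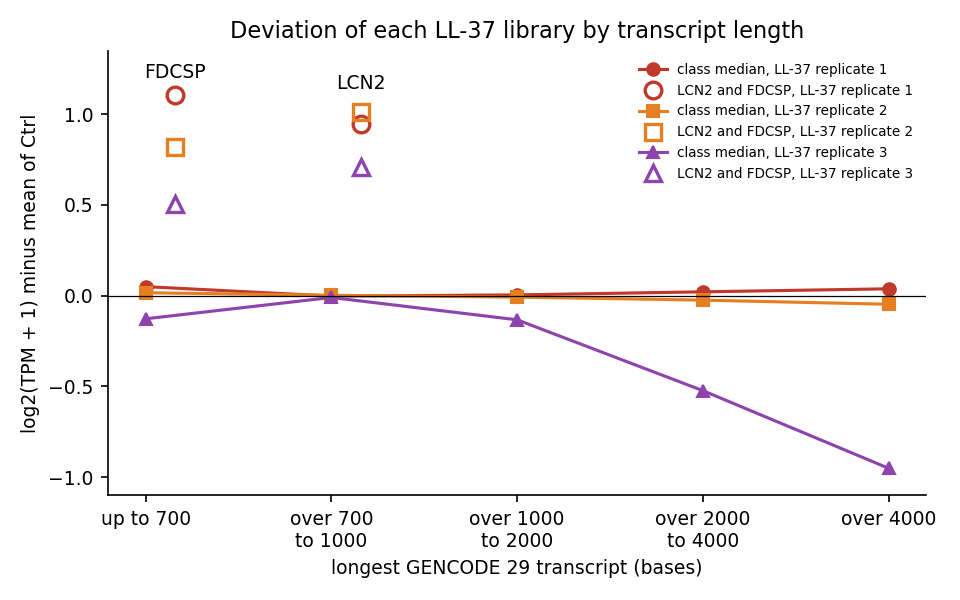
Median deviation of each LL-37 library from the Ctrl mean on the log2(TPM + 1) scale, by class of longest transcript length in bases, with LCN2 and FDCSP drawn in their own classes. LL-37 replicate 3 drops to -0.95 in the longest class and stays at -0.01 and -0.13 in the classes of LCN2 and FDCSP, whose own deviations there are 0.71 and 0.51.

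Scaling each library by the median ratio of its genes lifts LL-37 replicate 3 most, its size factor being 0.654 against 1.05 to 1.13 in the other 5 libraries. With this scaling LCN2 had values of 6.23, 6.88 and 8.80 in the LL-37 libraries, against 2.23, 3.06 and 3.39 in the Ctrl libraries. FDCSP had 10.16, 8.54 and 10.94 in the LL-37 libraries, against 4.12, 3.79 and 5.15 in the Ctrl libraries. The groups stayed apart for both genes, and LL-37 replicate 3, lowest as deposited, became the highest. The size factor is the same for all genes of a library and takes no account of transcript length. In LL-37 replicate 3 the medians of the length classes of LCN2 and FDCSP were only -0.01 and -0.13 before scaling. The scaled values of the pair in that library may therefore be too high. The scaling moved the median of all genes to 0.01. It also changed the background, to 873 genes (6.06%) entirely higher and 943 (6.55%) entirely lower with LL-37.

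LCN2 belongs to the lipocalins, barrel-shaped carriers of small lipophilic molecules. Of 19 other lipocalin family genes, 9 were listed at 0 in all 6 libraries (LCN1, LCN6, LCN8, LCN9, LCN15, LCNL1, OBP2A, OBP2B and ORM1) and 4 were tested. APOD, an apolipoprotein that carries arachidonic acid and progesterone, had 22.21, 19.77 and 17.67 TPM with LL-37, against 28.02, 26.40 and 26.64 TPM in Ctrl cells, and its groups did not overlap (log2 difference -0.43). As deposited, 10.3% of all tested genes were entirely lower, as APOD was. With median-of-ratios scaling the groups of APOD overlapped. C8G, the gamma chain of complement component C8, had 1.6, 1.51 and 1.07 TPM with LL-37, against 0.51, 0.72 and 0.77 TPM in Ctrl cells. It passed the filter only through its LL-37 libraries, so that its separation supports nothing.

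LCN12 had 5.69, 5.31 and 1.65 TPM with LL-37, against 6.39, 6.66 and 5.06 TPM in Ctrl cells, and its groups overlapped (log2 difference -0.54, and -0.11 without LL-37 replicate 3). APOM, a carrier of sphingosine phosphate in lipoproteins, had 1.42, 1.47 and 2.63 TPM with LL-37, against 1.29, 1.63 and 1.88 TPM in Ctrl cells, also overlapping (0.11, and -0.08 without that library). The 4 tested lipocalins had a median log2 difference of -0.16, beside -0.20 for all genes, and -0.10 without LL-37 replicate 3, beside -0.00. APOD was the most abundant lipocalin in both groups. LCN2 came next by mean with LL-37, whereas in Ctrl cells LCN12 lay above it. LCN12 averaged 4.22 ± 2.23 TPM with LL-37 and 6.04 ± 0.857 TPM in Ctrl cells (SD, n = 3 each). The ranges of these 2 genes did not overlap in either group, although the gap was small with LL-37, where the lowest LCN2 value was 5.75 TPM and the highest LCN12 value 5.69 TPM. The LCN12 mean with LL-37 includes the 1.65 TPM of LL-37 replicate 3. The change of order supports nothing, since this contrast chose LCN2.

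**Figure D4:**
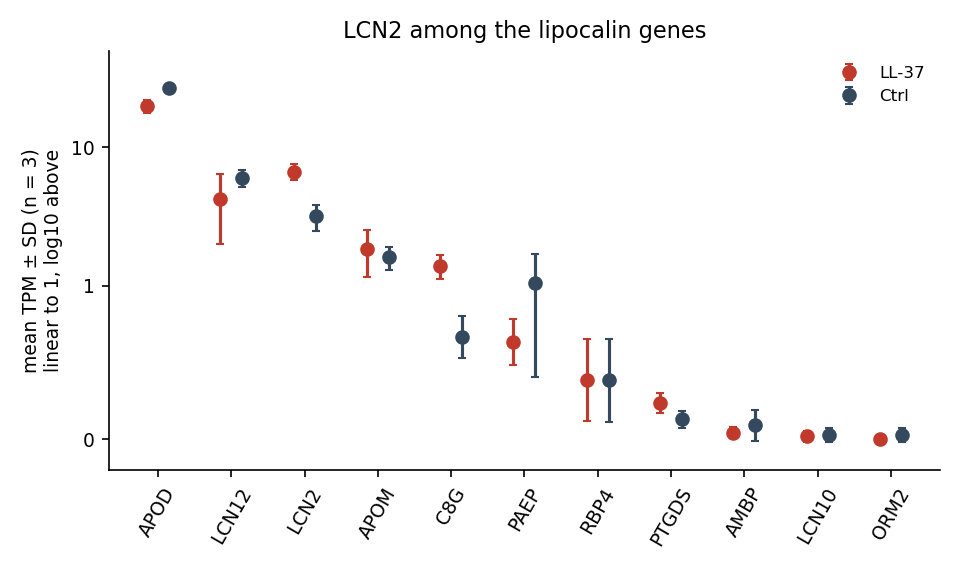
Mean TPM with SD (n = 3 each) of LCN2 and the lipocalin genes not listed at 0 throughout, LL-37 left of Ctrl, on an axis that is linear up to 1 TPM and log10 above. APOD is the most abundant, LCN2 lies higher with LL-37 (6.69 TPM) than in Ctrl cells (3.17 TPM), and the genes right of C8G are under the filter.

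The other secreted-protein genes around FDCSP were nearly silent. Of 15 genes of the casein, salivary peptide and enamel protein cluster, 12 were listed at 0 in all 6 libraries, and CSN3, MUC7 and AMTN did not exceed 0.31 TPM. Their summed level was 0.26 to 0.5 TPM with LL-37 and 0.26 to 0.45 TPM in Ctrl cells, and none was tested. The nearest tested genes of FDCSP lay 438.1 kb before it (SULT1B1, a sulfotransferase) and 453.2 kb after it (UTP3, a factor of ribosome assembly). SULT1B1 had 1.03, 1.45 and 0.58 TPM with LL-37, against 0.89, 1.41 and 1.34 TPM in Ctrl cells. UTP3 had 32.72, 28.99 and 13.69 TPM with LL-37, against 36.72, 29.31 and 33.31 TPM in Ctrl cells. The groups of both overlapped, as did those of UGT2B7, YTHDC1, RUFY3 and GRSF1 farther out. The log2 differences of the 6 ran from -0.54 (YTHDC1) to 0.17 (UGT2B7), and without LL-37 replicate 3, where the groups also overlapped, from -0.10 (UTP3) to 0.17 (UGT2B7). YTHDC1 turned, having a log2 difference of 0.015 without that library.

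Next to LCN2, BBLN begins 6.81 kb after the end of the gene and had 105.39, 109.83 and 97.22 TPM with LL-37, against 89.76, 98.18 and 98.86 TPM in Ctrl cells. CIZ1, a DNA replication factor 12.6 kb after it, had 110.34, 100.7 and 44.08 TPM with LL-37, against 99.06, 83.37 and 92.97 TPM in Ctrl cells. PTGES2, a prostaglandin E synthase 20.6 kb before it, had 50.02, 44.11 and 30.30 TPM with LL-37, against 45.22, 44.52 and 52.24 TPM in Ctrl cells. The groups of these genes overlapped, as did those of SLC25A25, its antisense gene SLC25A25-AS1 and DNM1. BBLN, CIZ1 and SLC25A25-AS1 were entirely higher with LL-37 once LL-37 replicate 3 was left out, as were 12.3% of all tested genes (12.9% were entirely lower). With median-of-ratios scaling BBLN was entirely higher. The log2 differences of the 6 neighbours of LCN2 ran from -0.40 (DNM1) to 0.12 (BBLN), beside 0.89 for LCN2. They ran from -0.01 (PTGES2) to 0.20 (CIZ1) without LL-37 replicate 3, beside 0.98 for LCN2. DNM1 turned, having a log2 difference of 0.07 without that library.

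Of 29 regulators that act upstream of LCN2, 25 were tested and 0 passed the limma threshold (smallest adjusted p = 0.739, and 0.0749 without LL-37 replicate 3). NFKB1 and IL1A were entirely higher with LL-37 (2 of 25, beside 2.13% of all tested genes), and STAT3, SOCS3 and OSMR entirely lower (3 of 25, beside 10.3%). The median log2 difference was -0.23, beside -0.20 for all genes, and 0.02 without LL-37 replicate 3, beside -0.00. The number with a positive difference was 8 of 25, and 14 of 25 without LL-37 replicate 3.

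NFKB1, which encodes the p105 precursor of an NF-kB subunit, had 82.4, 71.73 and 60.28 TPM with LL-37, against 55.7, 54.26 and 55.1 TPM in Ctrl cells (log2 difference 0.36). IL1A, an inflammatory cytokine, had 28.67, 29.67 and 31.59 TPM with LL-37, against 20.9, 21.71 and 20.09 TPM in Ctrl cells (0.50). Both had all LL-37 libraries above all Ctrl libraries. NFKB2, a subunit of the alternative NF-kB pathway, had 71.94, 74.91 and 36.91 TPM with LL-37, against 53.62, 46.01 and 45.59 TPM in Ctrl cells. Its groups overlapped through LL-37 replicate 3 alone, and its log2 difference was 0.27 in all 6 libraries and 0.59 without that library.

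CEBPB, the C/EBP factor of acute-phase responses, had 91.96, 89.11 and 63.05 TPM with LL-37, against 71.05, 71.84 and 71.85 TPM in Ctrl cells, with the same overlap through LL-37 replicate 3. Its log2 difference was 0.16, and 0.33 without that library. NFKBIZ, the IκBζ named above, had 11.18, 11.13 and 5.01 TPM with LL-37, against 10.41, 9.35 and 10.46 TPM in Ctrl cells. It too overlapped through LL-37 replicate 3 alone, and its log2 difference turned, being -0.20 in all 6 libraries and 0.14 without that library. TNFRSF1A, the main receptor of tumour necrosis factor, had 81.81, 79.3 and 55.29 TPM with LL-37, against 81.36, 84.86 and 87.98 TPM in Ctrl cells. The groups of TNFRSF1A overlapped with and without LL-37 replicate 3, with log2 differences of -0.25 and -0.07. The transcripts of the cytokines TNF and IL6 were at or below 0.08 TPM in all 6 libraries.

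On the STAT side, STAT3, the factor activated by cytokines of the interleukin-6 family, had 33.51, 33.46 and 12.34 TPM with LL-37, against 39.13, 37.73 and 43.47 TPM in Ctrl cells (log2 difference -0.71, and -0.25 without LL-37 replicate 3). SOCS3, the feedback inhibitor of that pathway, had 5.57, 5.44 and 3.36 TPM with LL-37, against 7.33, 7.42 and 7.68 TPM in Ctrl cells (-0.57 and -0.38). OSMR, the oncostatin M receptor, had 32.22, 30.27 and 11.77 TPM with LL-37, against 39.58, 36.31 and 42.96 TPM in Ctrl cells (-0.78 and -0.33). All 3 were lower in every LL-37 library, with the widest gap in LL-37 replicate 3.

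With median-of-ratios scaling, 7 of 25 regulators were entirely higher (beside 6.06% of all tested genes) and 5 entirely lower with LL-37 (beside 6.55%). As deposited without LL-37 replicate 3, 9 were entirely higher (beside 12.3%) and 3 entirely lower (beside 12.9%). NFKB2, RELB, NFKBIA, CEBPB and IL1B were entirely higher under both settings, NFKBIZ and LIF without LL-37 replicate 3 but not with the scaling. CEBPA and TLR4 were entirely lower with the scaling but not without LL-37 replicate 3.

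**Figure D5:**
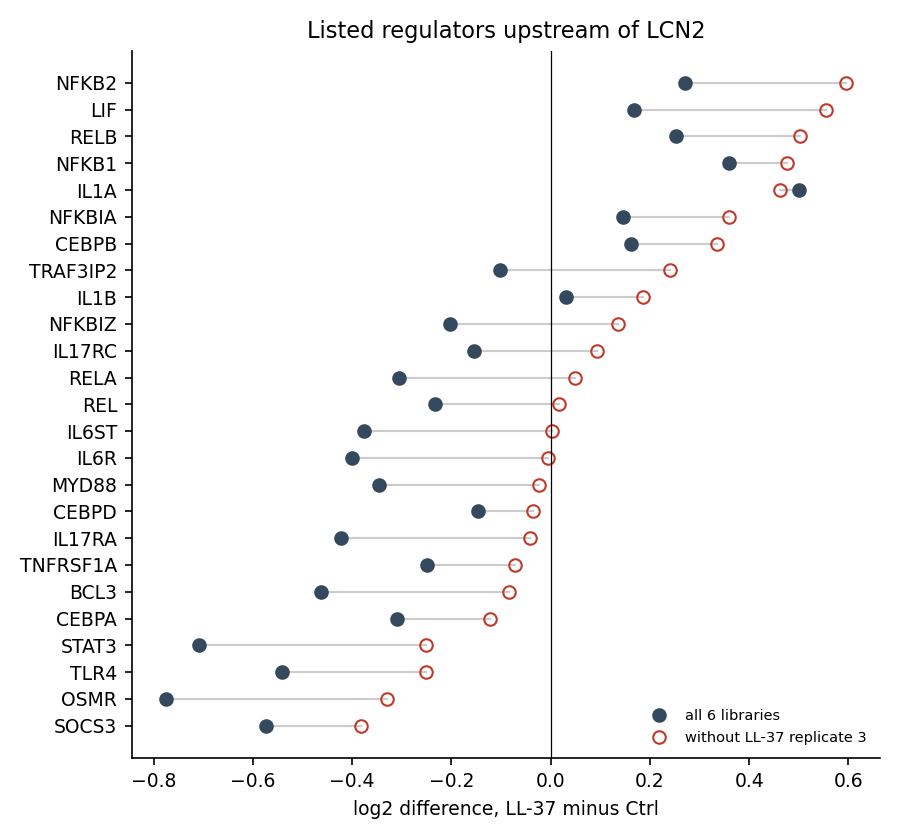
Difference of mean log2(TPM + 1), LL-37 minus Ctrl, for the 25 tested regulators in all 6 libraries and without LL-37 replicate 3. In all 6 libraries IL1A (0.50) and OSMR (-0.78) stand at the ends, and without LL-37 replicate 3 all but IL1A lie further to the right.

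Of 25 receptors of LCN2 and genes of iron handling, 18 were tested, 0 passed the limma threshold, 0 were entirely higher and 5 were entirely lower with LL-37 (beside 10.3% of all tested genes). The median log2 difference was -0.17, beside -0.20 for all genes, and -0.04 without LL-37 replicate 3, beside -0.00. SLC22A17, a cell-surface LCN2 receptor, had 1.28, 1.05 and 0.36 TPM with LL-37, against 1.09, 1.05 and 1.49 TPM in Ctrl cells, with overlapping groups. Its log2 difference was -0.25, and -0.03 without LL-37 replicate 3. The other receptors stayed under the filter, LRP2 (megalin) at up to 0.2 TPM and MC4R, a receptor of LCN2 in the mouse brain, at up to 0.16 TPM. MMP9, the protease with which LCN2 forms a complex, did not exceed 0.06 TPM.

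The iron stores were the most abundant of this list. FTH1, the ferritin heavy chain, had 4325.12, 4136.5 and 3721.9 TPM with LL-37, against 4529.17, 4114.17 and 4474.58 TPM in Ctrl cells. FTL, the light chain, had 1961.45, 2037.38 and 2268.58 TPM with LL-37, against 1815.44, 2120.51 and 2093.71 TPM in Ctrl cells. PCBP2, an iron chaperone and RNA-binding protein, had 701.15, 669.02 and 464.59 TPM with LL-37, against 669.01, 648.86 and 713.92 TPM in Ctrl cells. The groups of all 3 overlapped. They also overlapped without LL-37 replicate 3, with log2 differences of -0.05 for FTH1, -0.00 for FTL and 0.02 for PCBP2, against -0.11, 0.06 and -0.17 in all 6 libraries.

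The 5 that were entirely lower had small differences. TFRC, the transferrin receptor, had 99.12, 97.8 and 68.88 TPM with LL-37, against 110.91, 101.57 and 110.19 TPM in Ctrl cells. BDH2, an enzyme proposed to make a mammalian siderophore, had 7.79, 8.26 and 7.43 TPM with LL-37, against 8.44, 10.05 and 9.98 TPM in Ctrl cells. SLC11A2 (an iron importer), NCOA4 (the receptor for ferritin breakdown) and HFE (a regulator of iron sensing) had log2 differences of -0.23, -0.17 and -0.09. All 5 were also entirely lower without LL-37 replicate 3, where TFRC (-0.29 in all 6 libraries) had a log2 difference of -0.13, SLC11A2 -0.14 and NCOA4 -0.10. With median-of-ratios scaling the groups of all 5 overlapped, HMOX1 and PCBP1 were entirely higher (beside 6.06% of all tested genes), and IREB2 and SLC25A37 entirely lower (beside 6.55%). HMOX1, the heme-degrading enzyme, was entirely higher without LL-37 replicate 3 too, with 9.63, 10.36 and 6.86 TPM with LL-37, against 8.2, 7.08 and 9.18 TPM in Ctrl cells. Without that library 12.3% of all tested genes were entirely higher and 12.9% entirely lower.

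Of 28 other secreted antimicrobial and acute-phase proteins, 15 were listed at 0 in all 6 libraries, S100A7, S100A8, S100A9, DEFB1, RNASE7 and HAMP among them. Of the 9 tested, 0 passed the limma threshold, 1 was entirely higher (beside 2.13% of all tested genes) and 2 entirely lower (beside 10.3%). PTX3, a soluble pattern-recognition protein, was entirely higher, with 3.8, 4.5 and 2.95 TPM with LL-37, against 2.43, 2.65 and 2.15 TPM in Ctrl cells (log2 difference 0.47, and 0.59 without LL-37 replicate 3). SERPINA3, an acute-phase protease inhibitor and the most abundant of the list, was entirely lower, with 545.91, 613.88 and 551.41 TPM with LL-37, against 750.58, 823.6 and 798.79 TPM in Ctrl cells (-0.47, and -0.45 without LL-37 replicate 3).

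CAMP, the gene of LL-37 itself, was also entirely lower, with 1.41, 1.23 and 1.77 TPM with LL-37, against 1.88, 1.83 and 2.53 TPM in Ctrl cells (log2 difference -0.32, and -0.40 without LL-37 replicate 3). The lysozyme gene LYZ overlapped in all 6 libraries and was entirely lower without LL-37 replicate 3 (-0.47, against -0.23 in all 6 libraries). Without that library 12.9% of all tested genes were entirely lower. With median-of-ratios scaling the groups of SERPINA3 and of CAMP overlapped. ADM, the vasodilator and antimicrobial peptide adrenomedullin, and SERPINA1, the elastase inhibitor alpha-1-antitrypsin, had log2 differences of -0.14 and -0.31, and of -0.07 and -0.20 without LL-37 replicate 3. The 9 had a median log2 difference of -0.23, beside -0.20 for all genes, and -0.20 without LL-37 replicate 3, beside -0.00.

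The genes whose pattern was most like that of LCN2 over the 6 libraries were ALYREF, ARSG, ISG20, ERCC1 and LINC02289, by Pearson correlation of log2(TPM + 1) among 9685 genes (r = 0.97 to 0.98). ISG20, an exonuclease stimulated by interferon, had 222.16, 216.88 and 202.94 TPM with LL-37, against 154.41, 168.48 and 164.08 TPM in Ctrl cells. ARSG, a lysosomal sulfatase, had 6.46, 6.37 and 5.66 TPM with LL-37, against 4.56, 4.94 and 4.98 TPM in Ctrl cells. Nearest to FDCSP were ATP6V0A4, AUH, ALYREF, ASPSCR1 and UBE2S (r = 0.96 to 0.99). ATP6V0A4, a subunit of the vacuolar proton pump, had 12.01, 10.36 and 8.44 TPM with LL-37, against 6.17, 6.32 and 7.30 TPM in Ctrl cells. LCN2 and FDCSP themselves correlated at r = 0.93, and FDCSP ranked 19 of 9685 for LCN2. These correlations rest on 6 libraries in 2 groups and share those groups. This contrast chose LCN2 and FDCSP, so that their correlation and rank support nothing. A high correlation could go with a small difference, the log2 difference being 0.09 for ERCC1 and 0.07 for AUH. ALYREF, the mRNA export adaptor at the head of the LCN2 list, had 75.69, 74.21 and 71.43 TPM with LL-37, against 63.46, 64.28 and 66.73 TPM in Ctrl cells.

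Markers of neutrophils, which store LCN2, and of follicular dendritic cells, which make FDCSP, were low. Of 8 neutrophil markers, 5 were listed at 0 in all 6 libraries (MPO, CEACAM8, CSF3R, FCGR3B and CTSG), and the list summed to 0.53 to 0.86 TPM with LL-37 and 0.72 to 0.93 TPM in Ctrl cells. Of 5 follicular dendritic cell markers other than FDCSP, CXCL13 and CR1 were listed at 0 in all 6, and the list summed to 0.17 to 0.41 TPM with LL-37 and 0.3 to 0.5 TPM in Ctrl cells. Of 6 markers of salivary and mammary epithelium, KRT7, a simple-epithelium keratin, was tested and was entirely higher, with 6.42, 5.65 and 7.18 TPM with LL-37, against 4.30, 3.84 and 4.64 TPM in Ctrl cells. The whole list summed to 6.37 to 7.95 TPM with LL-37 and 4.3 to 5.5 TPM in Ctrl cells. EPCAM, CDH1, KRT19 and ELF5 were at or below 0.4 TPM, and ELF3 did not exceed 0.55 TPM. Among all tested genes, 2.13% were entirely higher, as KRT7 was. The part of KRT7 in the LCN2 and FDCSP result was not tested.

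The labels' protocol calls the starting material keratinocytes, although the samples are named A375. Of 8 melanocyte and melanoma markers, SOX10, the neural crest factor, had 387.25, 343.19 and 146.99 TPM with LL-37, against 287.26, 265.65 and 296.44 TPM in Ctrl cells, and S100B lay between 27.11 and 38.16 TPM in all 6. The groups of both overlapped, but without LL-37 replicate 3 SOX10 was entirely higher with LL-37 (log2 difference 0.37, against -0.07 in all 6 libraries) and S100B entirely lower (-0.33, against -0.20). MITF was entirely lower, at 1.75 to 4.4 TPM with LL-37 and 4.57 to 5.45 TPM in Ctrl cells (log2 difference -0.50, and -0.18 without LL-37 replicate 3), whereas TYR was listed at 0 in all 6 and MLANA did not exceed 0.02 TPM. Of 8 keratinocyte markers, KRT1, DSG3 and TP63 were listed at 0 in all 6, KRT5 did not exceed 0.14 TPM, KRT14 was at 1.15 to 1.98 TPM, and KRT10 and DSC3, the others tested, were entirely lower with LL-37 (log2 differences -0.28 and -0.38, and -0.39 and -0.19 without LL-37 replicate 3). With median-of-ratios scaling the groups of KRT10 overlapped. In all 6 libraries 2.13% of all tested genes were entirely higher and 10.3% entirely lower with LL-37. Without LL-37 replicate 3 these shares were 12.3% and 12.9%. The keratinocyte list summed to 21.3 to 26.8 TPM with LL-37 and 28.8 to 30.0 TPM in Ctrl cells, most of it KRT10. The fibroblast list, of which PDGFRA, PDGFRB and LUM were tested, summed to 3.34 to 7.97 TPM with LL-37 and 7.13 to 8.02 TPM in Ctrl cells. In bulk libraries, fewer cells of a type and less RNA per cell cannot be told apart.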

How the data were processed

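RNA of 6 A375 libraries was made into stranded poly(A) libraries and sequenced from both ends, per the labels' protocols. The authors deposited 1 table of TPM (transcript abundances scaled by length, with the same total in each library) for 63140 genes on GRCh38, the build per the submitters' processing notes. Aligner and quantifier: not given in the sources used here. Such values keep no depth. A name table matched 62541 identifiers, and GENCODE 29 gave positions for 58126.

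TPM were taken to log2 with a pseudocount of 1. A gene was tested if 3 or more libraries reached 1 TPM (14399 genes). The fit was limma's moderated test (version 3.58.1, R 4.3.3), two-sided and with an intensity trend, with Benjamini-Hochberg adjustment and a threshold of 0.05. It was tested on simulated data. LCN2, FDCSP and the lists were chosen with earlier results of these data known. Named genes were the nearest 3 tested neighbours on each side, the 5 genes most like each member with a mean of at least 5 TPM, the 3 most abundant of each list, list members past the threshold or with groups that did not overlap, and tested markers; NFKB2, NFKBIZ, SLC22A17, genes listed at 0 or under the filter, and those whose groups parted under another setting were named after their values were seen.

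Alternatives were other pseudocounts, filters and scalings, no intensity trend, a replicate block, each library left out, removal of mitochondrially encoded genes, and, chosen after seeing the data, removal of each library's length trend and median-of-ratios scaling without LL-37 replicate 3. Promoter sequence is from RefSeq, which names the assembly GRCh38.p14. One gene of the regulator list is not reported here, and the list's counts leave it out. The mouse libraries were not analysed here.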

Additional observations from a re-analysis of the deposited data

How the results depend on the processing

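LCN2 and FDCSP were higher with LL-37 under all 17 alternatives, with log2 differences of 0.52 to 1.12 for LCN2 and 0.53 to 1.04 for FDCSP. This contrast chose the pair, so that the shared direction supports nothing. The other filters, the replicate block and the fit without an intensity trend cannot alter a difference of means, and returned 0.89 and 0.81 unchanged. A pseudocount of 5, which shrinks low genes, gave 0.52 for LCN2 and 0.53 for FDCSP, and quantile normalization gave 1.12 for LCN2. The cause of the quantile value was not tested. Leaving out each library gave 0.76 to 1.00 for LCN2, 0.66 to 0.96 for FDCSP and 0 to 17 genes past the threshold, the 17 without LL-37 replicate 3 (limma). Under each other alternative with such a count the number of genes past the threshold was 0. The count was run for 16 alternatives, not for median-of-ratios scaling without LL-37 replicate 3.

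Same-numbered libraries did not deviate together (r = 0.09, -0.20 and -0.17). With LL-37 replicate 3 standing apart, these values cannot exclude a shared batch or pairing. The replicate block gave 0 genes past the threshold, 0.89 for LCN2 and 0.81 for FDCSP. List members past the threshold stayed at 0 under the 16 alternatives run for them. The median of all genes ranged from -0.31 to 0.01. Removal of the length trend, chosen after seeing the data, gave 0.91 for LCN2 and 0.83 for FDCSP. The planned mouse Lcn2 alternatives and the protein-length trend were not run. TPM keep no depth, so that counting error at these low levels is unknown, and n = 3 limits the precision.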
